A study of Rattus norvegicus with 6 samples.

Results

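The 42 genes of the claudin family, the tight junction and the desmosome were followed across 6 rat tumor libraries, out of 17030 gene symbols in the table. They were taken by symbol: every claudin (22 genes), the Tjp genes for the ZO scaffolds (3), the tight junction membrane proteins Ocln, F11r, Jam2, Jam3, Marveld2 and Marveld3 (6), the polarity proteins Pard3, Pard6a and Pard6b (3), the desmosomal cadherins of the Dsg and Dsc families (4), and the desmosomal plaque proteins Jup and Pkp1 to Pkp3 (4). No row carried the symbols Cgn, Dsp, Dsg1 or Dsg2, so these genes were not analysed here. Of the 42 genes, 31 averaged 1 FPKM or more and could be tested: 13 claudins, all 3 Tjp genes, all 6 membrane proteins, all 3 polarity proteins, 2 desmosomal cadherins and all 4 plaque proteins.

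By the labels and the study's methods, the tumors were grown from PAIII cells, a transplantable rat prostate cancer line, injected under the skin of the flank of syngeneic Lobund-Wistar rats aged 2 months. Rats A1, A6 and A12 received digitoxin, a cardiac glycoside, at 0.03 mg/kg per day from day 10, and rats B5, B9 and B14 received vehicle (n = 3 in each group, 1 library per rat). Tumors were taken on day 40, and RNA came from punches of viable tumor. Per the study's methods, the sequenced rats were picked from the extremes of 2 serum cytokines, low for digitoxin and high for vehicle, so that treatment and this selection cannot be told apart. Values are FPKM, read fragments divided by transcript length and by the size of the library, which allows levels of different genes to be compared per length. The depth behind each value is unknown. All the p-values below measure the spread between these 6 rats.

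Tight junctions seal the space between neighboring epithelial or endothelial cells. Claudins form the paracellular strands and decide which ions and solutes pass, occludin and the Marvel proteins sit in the same strands, JAM proteins lie beside them, and the ZO proteins tie the strands to the actin cytoskeleton. Desmosomes are spot welds: the cadherins desmoglein and desmocollin bind between cells, and plakoglobin and the plakophilins link them to intermediate filaments. Claudins are expressed by cell type. Cldn5 is the main claudin of endothelium, Cldn18 is made by lung alveolar epithelium and stomach, and Cldn3, Cldn4 and Cldn7 are claudins of glandular epithelium and of many carcinomas.

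The libraries differed widely in transcripts of other cell types, and 4 of them held lung transcripts at levels that go against a label of flank tumor. Of 12 lung alveolar markers, 11 were in the table, and their summed level ran from 42.1 to 85708 FPKM in the digitoxin group and from 64.4 to 36409 FPKM in the vehicle group. A12 and B14 were the libraries near 0, with the surfactant gene Sftpc listed at 0 in B14 and at 0.229 FPKM in A12, against 19188 to 63514 FPKM in the rest. A1, A6, B5 and B9 therefore stand apart from their label as subcutaneous tumors, the source of their lung transcripts was not tested, and all group values below hold for the libraries as labelled. From the highest sum to the lowest the order was A6, A1, B9, B5, B14, A12, so each group held 1 library with almost no lung transcripts, and both lung-rich digitoxin libraries lay above both lung-rich vehicle libraries. Sums of the airway list (Scgb1a1 highest) and the motile cilia list (Tppp3 highest) were likewise lowest in A12 and B14, at no more than 4.21 and 16.5 FPKM, against at least 21170 and 230 FPKM elsewhere. The endothelial list (Egfl7 highest) summed to 90.4 FPKM in A12 and 105 FPKM in B14, and to between 265 and 881 FPKM in the other libraries. The fibroblast list (Col1a1 highest) ran the other way, with 1671 and 2779 FPKM in A12 and B14 and 80.5 to 451 FPKM elsewhere. Leukocyte sums (Laptm5 highest) lay between 225 and 869 FPKM, mesothelial sums (Msln highest) between 102 and 243 FPKM, and muscle sums (Tnnt2 highest) between 9.11 and 147 FPKM. Keratinocyte sums (Krt14 highest) lay between 6.51 and 28.8 FPKM, with Krt5 under 1 FPKM throughout. Of the prostate markers, Pbsn was listed at 0 in every library and Hoxb13 was at most 0.0937 FPKM, while Fkbp5 and Tmprss2, which other tissues also make, gave list sums of 38.3 to 90.3 FPKM. In such bulk samples fewer cells of a type and less RNA per cell cannot be told apart, and the part of these marker transcripts in the values below was not tested beyond the fit with the alveolar level as a covariate.

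Claudin mRNA was abundant in all the tumors, and its total level differed little between libraries while its makeup differed widely. The summed FPKM of the 22 claudins was 1259, 1275 and 1738 in the digitoxin rats A1, A6 and A12 and 1445, 1501 and 1402 in the vehicle rats B5, B9 and B14, a 1.38-fold range. The group means were 1424 ± 272 FPKM with digitoxin and 1449 ± 49.9 FPKM with vehicle (SD, n = 3). Together Cldn3, Cldn4, Cldn5, Cldn7 and Cldn18 held 92.0 to 96.5% of that sum in every library. Cldn3, Cldn4 and Cldn7 together made 93.1% of it in A12 and 91.5% in B14, 72.9% in B5, 59.1% in B9, 51.2% in A1 and 19.5% in A6. Whether their transcripts came from tumor cells or from lung epithelium was not tested. Cldn5 and Cldn18 together made 77.0% in A6, 43.7% in A1, 35.3% in B9 and 19.7% in B5, and under 1% in A12 (0.199%) and B14 (0.516%). Each group thus held 1 library in which Cldn5 and Cldn18 were under 1% of the sum and 2 libraries in which they were a large share.

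**Figure D1:**
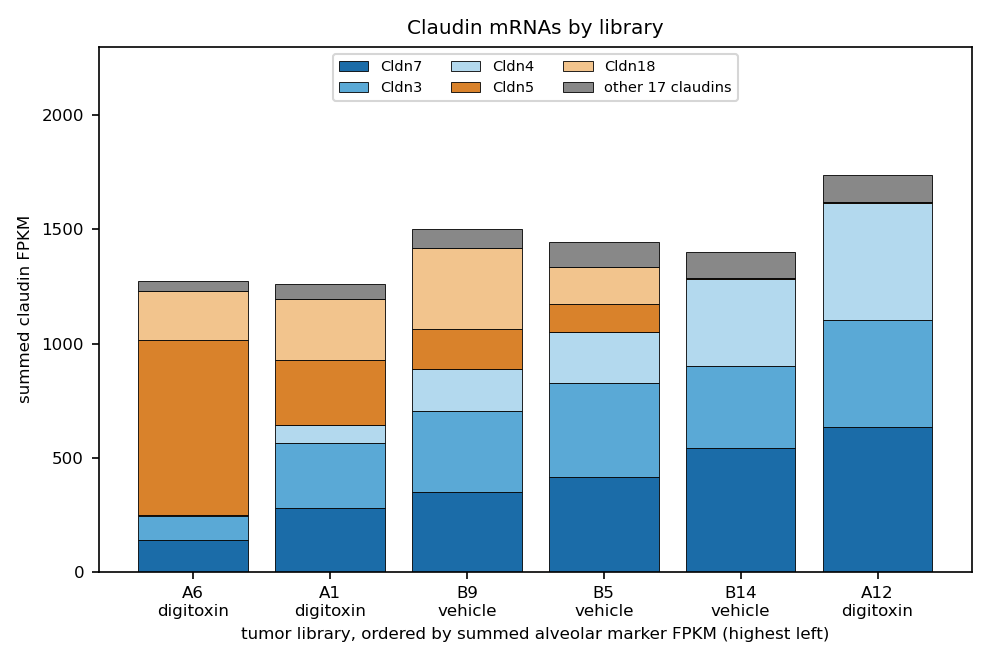
Summed FPKM of the 22 claudins in each tumor library (bars, linear axis from 0), with libraries ordered by their summed alveolar marker FPKM, highest at the left; colors give Cldn7, Cldn3, Cldn4, Cldn5, Cldn18 and the remaining claudins. The bar height runs from 1259 to 1738 FPKM, while the orange Cldn5 and Cldn18 part shrinks from 77.0% in A6 to 0.199% in A12.

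Cldn7 had the highest mean level of the 42 genes. It was at 277 FPKM in A1, 141 in A6 and 633 in A12, and at 414 in B5, 348 in B9 and 540 in B14. The digitoxin values surrounded the vehicle values, with A6 lowest and A12 highest, and the means were 351 ± 254 and 434 ± 97.6 FPKM. The log2 fold change, digitoxin against vehicle, on the log2(FPKM + 1) scale was -0.55 (SE 0.55, limma).

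Cldn3 was at 286, 101 and 470 FPKM in A1, A6 and A12, and at 411, 354 and 361 FPKM in B5, B9 and B14. Here too the digitoxin group held both the lowest and the highest library, and the log2 fold change was -0.64 (SE 0.55). Without A6 it was -0.030 for Cldn3 and -0.027 for Cldn7, and without A12 it was -1.13 and -1.11. The vehicle libraries lay close together (375 ± 31.1 FPKM), with alveolar marker sums of 64.4 FPKM in B14, 28115 FPKM in B5 and 36409 FPKM in B9.

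Cldn4, like Cldn3 a receptor for a clostridial enterotoxin, had a far wider range than Cldn3 and Cldn7. It was at 80.9, 6.69 and 514 FPKM with digitoxin (A1, A6, A12) and at 227, 185 and 381 FPKM with vehicle (B5, B9, B14). The highest library was 76.8 times the lowest, against 4.64 times for Cldn3 and 4.50 times for Cldn7. The ratio of Cldn4 to Cldn3 was 0.0660 in A6, 0.283 in A1, 0.524 in B9, 0.553 in B5, 1.05 in B14 and 1.09 in A12, so the relative levels of these claudins were themselves not constant. The log2 fold change of Cldn4 was -1.88 (SE 1.43), and its 95% interval ran from -5.36 to 1.59.

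Cldn1, a barrier claudin of skin and other epithelia, and Cldn23 and Cldn12, less studied claudins, were at lower levels. Cldn1 was at 10.5, 0.412 and 60.1 FPKM in A1, A6 and A12, and at 27.3, 15.8 and 64.9 FPKM in B5, B9 and B14. Its order over the libraries was close to that of Cldn4, with A6 lowest by far and A12 and B14 highest, and its log2 fold change was -1.66 (SE 1.36). Cldn23 was at 13.0, 0.973 and 27.6 FPKM with digitoxin and at 33.7, 25.1 and 21.6 FPKM with vehicle (log2 fold change -1.56, SE 0.96). Cldn12 was at 12.7, 6.78 and 26.7 FPKM with digitoxin and at 18.4, 17.2 and 22.6 FPKM with vehicle (-0.50, SE 0.48). A6 was the lowest library for all 3 genes, and the groups overlapped for all 3.

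Cldn5 ran opposite to Cldn1 and Cldn12 over most libraries. It was at 286 FPKM in A1, 767 in A6 and 3.37 in A12, and at 121 in B5, 178 in B9 and 7.17 in B14, a 228-fold range. Digitoxin against vehicle gave a log2 fold change of 0.81 with an SE of 2.15. Leaving out A6 turned it to -0.67 and leaving out B14 to -0.58, while leaving out A12 raised it to 3.06. The 6 values stood in the same order as the alveolar marker sums.

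Cldn18 had a 5503-fold range, the widest among the genes above 0 in every library. It was at 264 FPKM in A1 and 215 in A6 but 0.0949 in A12, and at 164 in B5 and 352 in B9 but 0.0639 in B14. The group means were 160 ± 141 and 172 ± 176 FPKM, and the log2 fold change of 0.0076 had a 95% interval from -7.15 to 7.17. It was -2.60 without B14, -1.36 without A1, -1.21 without A6 and 2.60 without A12. Within A1, A6, B5 and B9, Cldn18 did not follow the summed alveolar markers: B9 was highest for Cldn18 and A6 for the sum, of which Sftpc was the largest part. Single markers differed. Slc34a2, Lamp3 and Rtkn2 were highest in B9 like Cldn18, Sftpa1 in A1, and the other alveolar markers in A6.

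The other 14 claudins were low. Cldn10, a paracellular ion pore, had a mean of 8.04 FPKM, with 21.5 FPKM in A6 and under 1 FPKM in A12 and B14. Cldn15, another pore-forming claudin, had a mean of 5.91 FPKM, and Cldn11, Cldn6 and Cldn8 had means of 2.16, 1.68 and 1.23 FPKM. In each of these 5, A12 and B14 were the lowest libraries. Cldn2, Cldn9, Cldn22, Cldn19, Cldn20, Cldn17 and Cldn14 had means under 1 FPKM, the highest being Cldn2 at 0.707 FPKM. Cldn16 and Cldn24 were listed at 0 in all 6 libraries. Col1a2 was also listed at 0 in all 6, while Col1a1, its partner in type I collagen, reached 1665 FPKM, so an entry of 0 in this table need not be a level of 0. Several of these rare claudins are neighbors in the table's coordinates: Cldn6 and Cldn9 lie 150 bases apart on chromosome 10, and Cldn22 and Cldn24 lie 1454 bases apart on chromosome 16. Whether any reads of these neighbors were assigned to the wrong gene was not tested.

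Promoter sequence was available for 32 of the 42 genes by symbol, from RefSeq on GRCr8, and the 250 bases before each start were searched for CAGGTG on either strand (CACCTG on the other), the E-box that the repressors Snail and Zeb are known to bind. Shown are the windows of 3 claudins of epithelium (Cldn7, Cldn3, Cldn1), of the 2 abundant claudins that were low in A12 and B14 (Cldn5, Cldn18), and of Ocln, whose groups did not overlap. Capitals mark each match, and each sequence reads 5′ to 3′ on the strand of its gene.
Cldn7 (chr10:55188420-55188669, plus strand): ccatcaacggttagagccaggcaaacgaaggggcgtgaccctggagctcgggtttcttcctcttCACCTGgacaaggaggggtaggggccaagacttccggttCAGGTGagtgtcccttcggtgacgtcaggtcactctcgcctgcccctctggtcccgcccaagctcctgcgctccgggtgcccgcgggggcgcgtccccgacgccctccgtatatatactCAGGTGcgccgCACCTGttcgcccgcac
Cldn3 (chr12:27346548-27346797, minus strand): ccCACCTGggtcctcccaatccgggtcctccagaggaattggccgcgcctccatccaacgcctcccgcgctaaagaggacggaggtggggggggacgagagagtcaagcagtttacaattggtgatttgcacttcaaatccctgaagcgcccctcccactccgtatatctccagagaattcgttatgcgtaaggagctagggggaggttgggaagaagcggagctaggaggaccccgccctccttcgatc
Cldn1 (chr11:87926126-87926375, plus strand): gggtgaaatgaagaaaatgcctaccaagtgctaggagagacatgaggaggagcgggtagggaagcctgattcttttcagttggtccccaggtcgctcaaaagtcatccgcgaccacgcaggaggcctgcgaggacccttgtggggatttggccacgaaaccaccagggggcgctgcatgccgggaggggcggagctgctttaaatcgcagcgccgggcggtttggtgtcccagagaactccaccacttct
Cldn5 (chr11:95718599-95718848, minus strand): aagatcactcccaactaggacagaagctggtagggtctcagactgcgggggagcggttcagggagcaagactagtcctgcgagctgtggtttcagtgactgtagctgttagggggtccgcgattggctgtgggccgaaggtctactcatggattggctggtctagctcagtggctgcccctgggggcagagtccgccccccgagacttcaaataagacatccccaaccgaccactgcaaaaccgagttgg
Cldn18 (chr8:109144620-109144869, minus strand): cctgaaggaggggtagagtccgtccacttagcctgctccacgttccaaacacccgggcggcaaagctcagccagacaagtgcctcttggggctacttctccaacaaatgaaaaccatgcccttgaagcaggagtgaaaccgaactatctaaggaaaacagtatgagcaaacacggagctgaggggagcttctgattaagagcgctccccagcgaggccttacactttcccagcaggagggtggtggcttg
Ocln (chr2:33441199-33441448, minus strand): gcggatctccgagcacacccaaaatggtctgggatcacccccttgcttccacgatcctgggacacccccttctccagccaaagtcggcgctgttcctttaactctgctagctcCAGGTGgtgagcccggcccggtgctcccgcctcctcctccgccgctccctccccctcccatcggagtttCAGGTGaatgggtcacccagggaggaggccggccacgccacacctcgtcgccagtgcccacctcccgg

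The Cldn7 window held 4 matches, beginning 186, 147, 28 and 17 bases before the start, a number reached by 10 of 33469 promoters of the same length (0.0299%). Ocln held 2 matches, at 137 and 68 bases, and Cldn3 held 1, at 248 bases. The windows of Cldn1, Cldn5 and Cldn18 held none. Over the list, 9 of 33 windows had at least 1 match (27.3%: Cldn3, Cldn6, Cldn7, Cldn14, Ocln, F11r, Tjp3, Dsc2 and Jup), against 15.9% of all promoter windows. Pard6a had 2 windows and each other gene 1. Among the tested genes with a window, the match was found in 3 of 8 genes with A12 and B14 highest, 1 of 8 genes with both lowest, and 4 of 7 of the rest. These are matches of letters and not measured binding.

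Occludin, encoded by Ocln, was 1 of 3 genes whose groups did not overlap, all lower with digitoxin, against 3.26% of all tested rows. It was at 21.1, 10.2 and 22.1 FPKM in A1, A6 and A12, and at 28.4, 33.4 and 24.2 FPKM in B5, B9 and B14. Each digitoxin library lay below each vehicle library, with A12 and B14 separated by only a small step, and the means were 17.8 ± 6.61 and 28.6 ± 4.59 FPKM. On the log2 scale the change was -0.71 (SE 0.35, 95% interval -1.57 to 0.14, limma adjusted p = 0.926). It was -0.38 without A6, the lowest library, and -0.90 without A12.

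Tjp1, which encodes the scaffold ZO-1, was the next. It was at 40.6, 26.9 and 34.7 FPKM with digitoxin (A1, A6, A12) and at 42.0, 49.1 and 46.4 FPKM with vehicle (B5, B9, B14). The nearest libraries of the groups, A1 and B5, were close, and the means were 34.1 ± 6.86 and 45.9 ± 3.60 FPKM. The log2 fold change was -0.43 (SE 0.23, 95% interval -0.996 to 0.13, limma adjusted p = 0.926), and with median-of-ratios scaling of the libraries it was -0.24 and the groups overlapped. Leaving out A6 gave -0.28 and leaving out A1 gave -0.57.

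Dsg3, an epidermal desmoglein, was the last of the 3, at a level near the limit for testing. It reached the minimum mean of 1 FPKM only through the vehicle group, where it was higher, so its place among the 3 is no independent result. It was at 0.828, 0.0827 and 1.18 FPKM in A1, A6 and A12, and at 1.22, 1.76 and 2.68 FPKM in B5, B9 and B14. A12 and B5 were nearly equal, and the means were 0.697 ± 0.560 and 1.88 ± 0.740 FPKM. Its log2 fold change was -0.79 (SE 0.41, 95% interval -1.80 to 0.21, adjusted p = 0.926). It was -0.50 without A6, -1.66 with a pseudocount of 0.1 and -1.44 as a log2 ratio of group means. With the alveolar level as a covariate it was -0.76, with an unadjusted p of 0.0423 and an adjusted p of 0.618 in limma.

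The remaining scaffold and membrane genes showed no separation of the groups. Tjp3, encoding the epithelial scaffold ZO-3, was at 17.3, 8.87 and 33.2 FPKM with digitoxin and at 23.1, 23.6 and 29.2 FPKM with vehicle (-0.51, SE 0.47). A12 and B14 were the highest libraries.

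F11r, which encodes JAM-A, a receptor of epithelium, endothelium and blood cells, was the most abundant of the membrane genes. It was at 144, 177 and 114 FPKM with digitoxin and at 105, 146 and 106 FPKM with vehicle, a 1.68-fold range (0.28, SE 0.25; 0.12 without A6 and 0.47 with median-of-ratios scaling). Jam2, an endothelial JAM, was at 34.4, 43.6 and 1.80 FPKM with digitoxin and at 18.6, 30.7 and 3.11 FPKM with vehicle. Like Cldn5, Jam2 was lowest in A12 and B14, and both genes stood in the order of the alveolar sums. Jam3, also found in vessels, had a narrower range (3.36 to 10.1 FPKM) in the same order. Marveld2, encoding tricellulin of the tricellular contacts, ran from 0.886 FPKM in A6 to 12.9 FPKM in B14, and Marveld3, an occludin relative, from 1.39 FPKM in A6 to 7.68 FPKM in B14.

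The polarity genes encode the scaffold of the PAR complex that positions the tight junction. Pard6b was at 45.0, 40.5 and 35.3 FPKM with digitoxin and at 34.1, 40.8 and 32.8 FPKM with vehicle, the smallest range of the genes above 0 in all libraries (1.37-fold). Pard3 was at 9.35, 3.97 and 15.7 FPKM with digitoxin and at 10.1, 13.0 and 16.7 FPKM with vehicle. Pard6a was at 2.51, 1.19 and 2.43 FPKM with digitoxin and at 2.19, 2.60 and 1.51 FPKM with vehicle. Pard3 was highest in A12 and B14 and lowest in A6, an order that neither Pard6 gene shared.

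**Figure D2:**
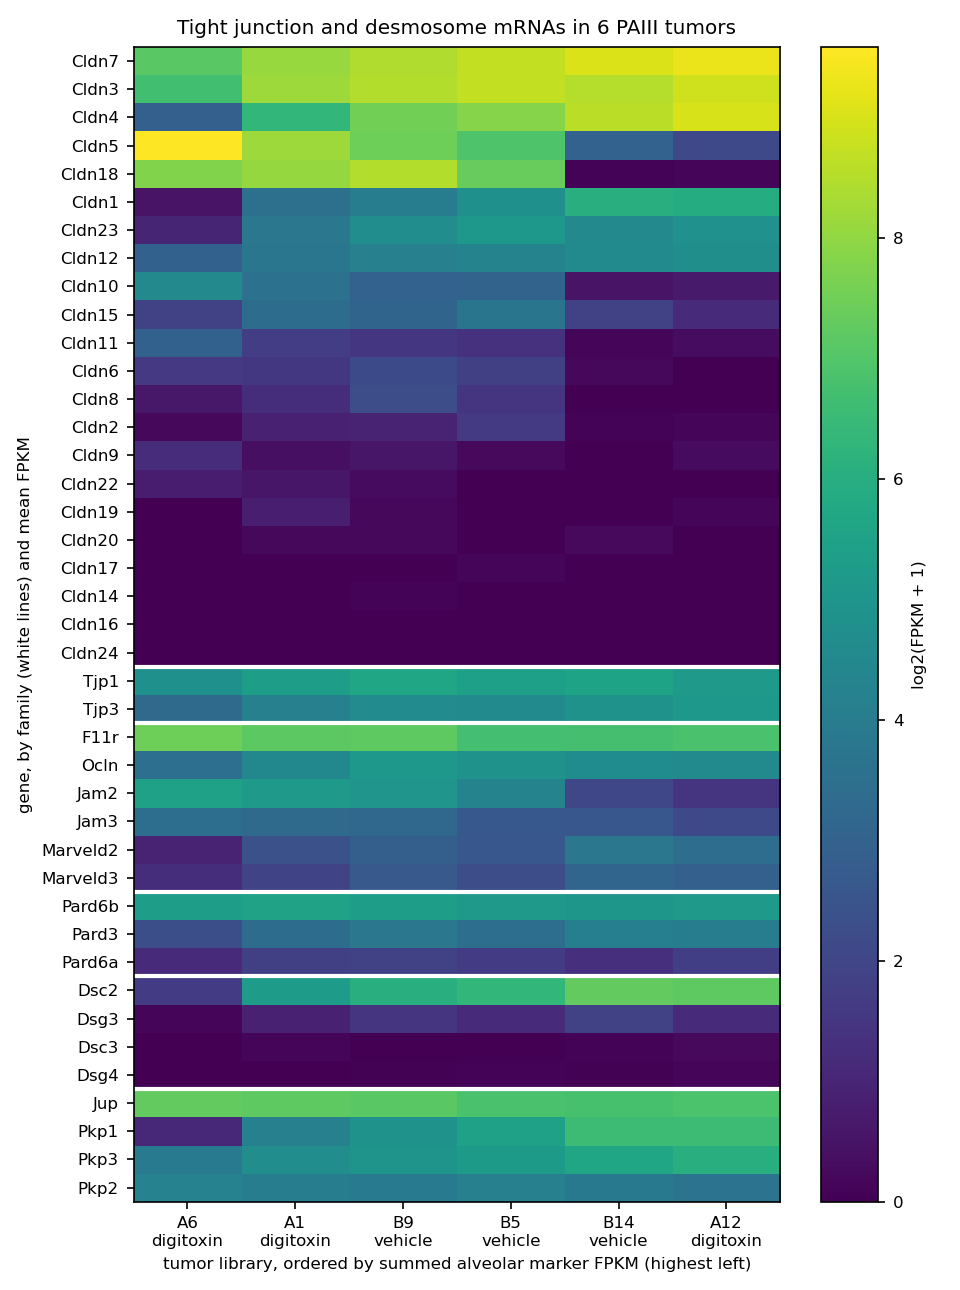
Level of 41 of the 42 genes as log2(FPKM + 1) (color) in the 6 tumor libraries (columns, ordered by summed alveolar marker FPKM, highest at the left), with white lines between families. Cldn5, Cldn18 and Jam2 darken toward A12 and B14, Cldn4, Cldn1, Dsc2 and Pkp1 brighten, and F11r, Pard6b and Jup keep nearly 1 color.

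Desmosome genes held both steady and widely ranging members. Their summed FPKM was 243, 191 and 434 in A1, A6 and A12, and 293, 279 and 423 in B5, B9 and B14, a 2.27-fold range. The sum leaves out Dsp, Dsg1 and Dsg2, which were not among the genes analysed. Jup encodes plakoglobin, which also serves the adherens junction. It was at 147, 155 and 115 FPKM with digitoxin and at 113, 139 and 110 FPKM with vehicle (log2 fold change 0.20, SE 0.22, with 0.12 without A6 and 0.40 with median-of-ratios scaling), and it made from 25.9% of the desmosomal sum in B14 to 81.2% in A6. Pkp2, a plakophilin of simple epithelia and heart, was at 15.5, 17.9 and 11.4 FPKM with digitoxin and at 16.9, 14.5 and 13.8 FPKM with vehicle. Their ranges over the libraries were 1.41-fold and 1.56-fold.

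Among the 4 desmosomal cadherins analysed, only Dsc2, the most widely expressed desmocollin, was at a high level. It was at 37.3, 2.21 and 148 FPKM in A1, A6 and A12, and at 81.4, 64.4 and 156 FPKM in B5, B9 and B14. A6 was lowest and A12 and B14 highest, a 70.4-fold range, and the log2 fold change was -1.84 (SE 1.34). Pkp1, a plakophilin known from stratified epithelia, was at 17.1, 1.10 and 94.9 FPKM with digitoxin and at 44.1, 29.0 and 93.0 FPKM with vehicle (-1.71, SE 1.35). The ratio of Pkp1 to Dsc2 stayed between 0.450 and 0.641 while Dsc2 ranged 70.4-fold and Pkp1 86.6-fold. Pkp3 was at 25.0, 14.6 and 63.5 FPKM with digitoxin and at 36.4, 29.8 and 48.5 FPKM with vehicle. Dsc3, a desmocollin of stratified epithelium, was at 0.0886 and 0.176 FPKM in A1 and A12, at 0.0225 and 0.0591 FPKM in B9 and B14, and listed at 0 in A6 and B5. Dsg4, a desmoglein of hair, was no higher than 0.116 FPKM.

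Several genes of both junctions thus shared an order over the libraries, which was described after the values were seen. In 12 of the 31 tested genes A12 and B14 were both above the other libraries, among them Cldn1, Cldn4, Cldn7, Cldn12, Tjp3, Marveld2, Marveld3, Pard3, Dsc2, Pkp1 and Pkp3. The share of all tested rows with this pattern was 30.1%. In 10 of the 31, both were below: Cldn5, Cldn6, Cldn8, Cldn10, Cldn11, Cldn15, Cldn18, Jam2, Jam3 and Pkp2, against 29.3% of all rows. These counts are near the background and are no result about junction genes. A stricter order, exactly opposite to the alveolar sums with A12 and B14 in either place, was met by 7 of 31 genes (22.6%: Cldn1, Cldn4, Cldn7, Cldn12, Dsc2, Pkp1 and Pkp3), against 8.07% of all rows. Its mirror image, the same order as the alveolar sums, was met by 4 of 31 (12.9%: Cldn5, Cldn11, Jam2 and Jam3), against 780 of 10740 rows. A6 was the lowest library for 17 of 31 genes, against 50.5% of all rows.

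**Figure D3:**
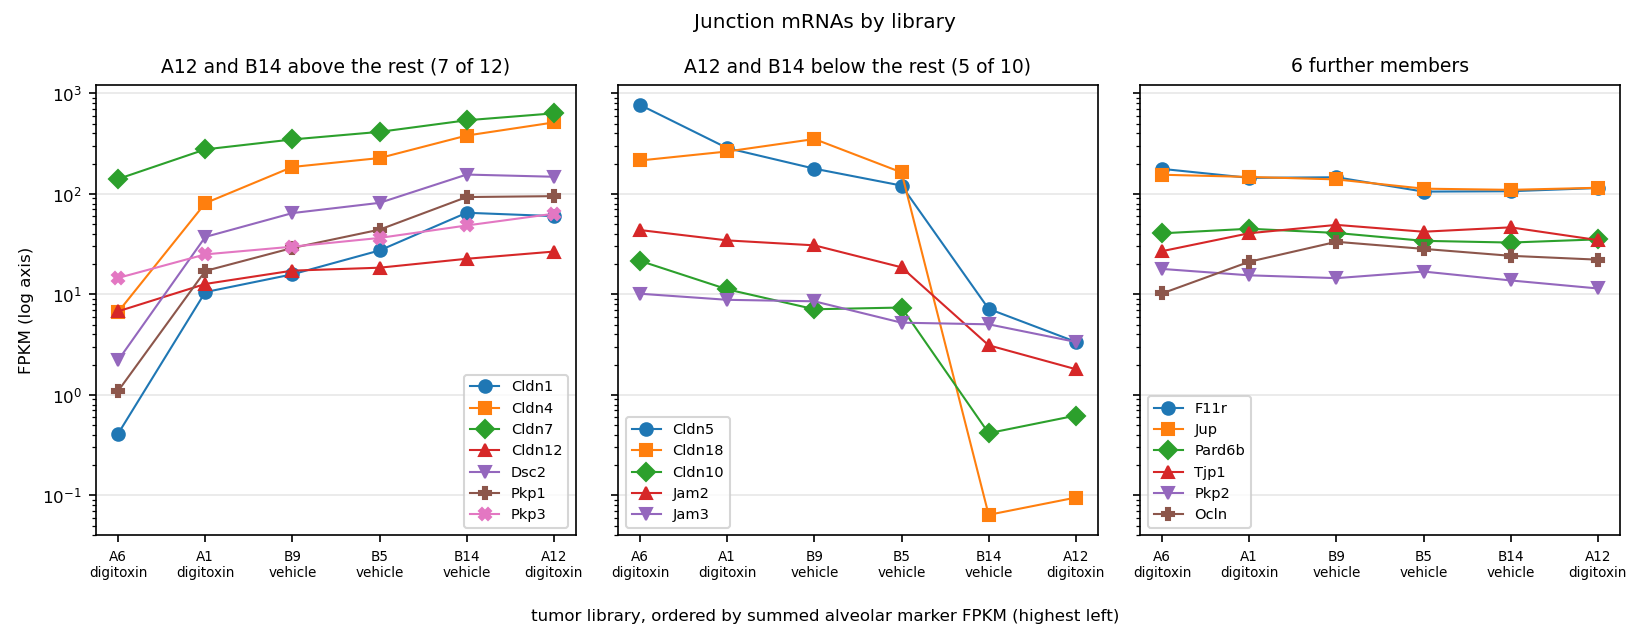
FPKM (log axis) by tumor library, ordered by summed alveolar marker FPKM, highest at the left; each line is 1 gene, in 3 panels for 7 of the 12 genes with A12 and B14 above the rest, 5 of the 10 with both below, and 6 further genes. Cldn1 climbs from 0.412 FPKM in A6 to over 60 FPKM in A12 and B14, Cldn18 drops from 164 FPKM or more to under 0.1 FPKM, and F11r and Jup stay between 105 and 177 FPKM.

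The comparison of digitoxin with vehicle asked whether the drug changed junction mRNAs in the tumor. With limma, 0 of the 31 genes passed an adjusted p of 0.05, as did 0% of the 10740 tested rows, and no adjusted p lay under 0.926. The unadjusted p was under 0.05 for 0 of 31 genes, against 0.335% of all rows (36). Of the 31 fold changes, 22 were below 0, against 64.9% of all rows, and the median was -0.50 against -0.16 for all rows. With median-of-ratios scaling, which moved the median of all rows by 0.18, 19 of 31 were below 0 against 48.5% of all rows. The median relative to all rows was -0.34 under either scaling, but -0.12 without A6, where the medians were -0.20 and -0.082, -0.20 without B14, -0.15 with no filter and -0.52 without A12 and B14. Groups did not overlap for 3 of 31 genes, all lower with digitoxin (Ocln, Tjp1 and Dsg3), against 3.26% of all rows lower and 0.903% higher. Only Ocln and Dsg3 kept this with median-of-ratios scaling, and Dsg3 passed the filter only through the vehicle group.

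**Figure D4:**
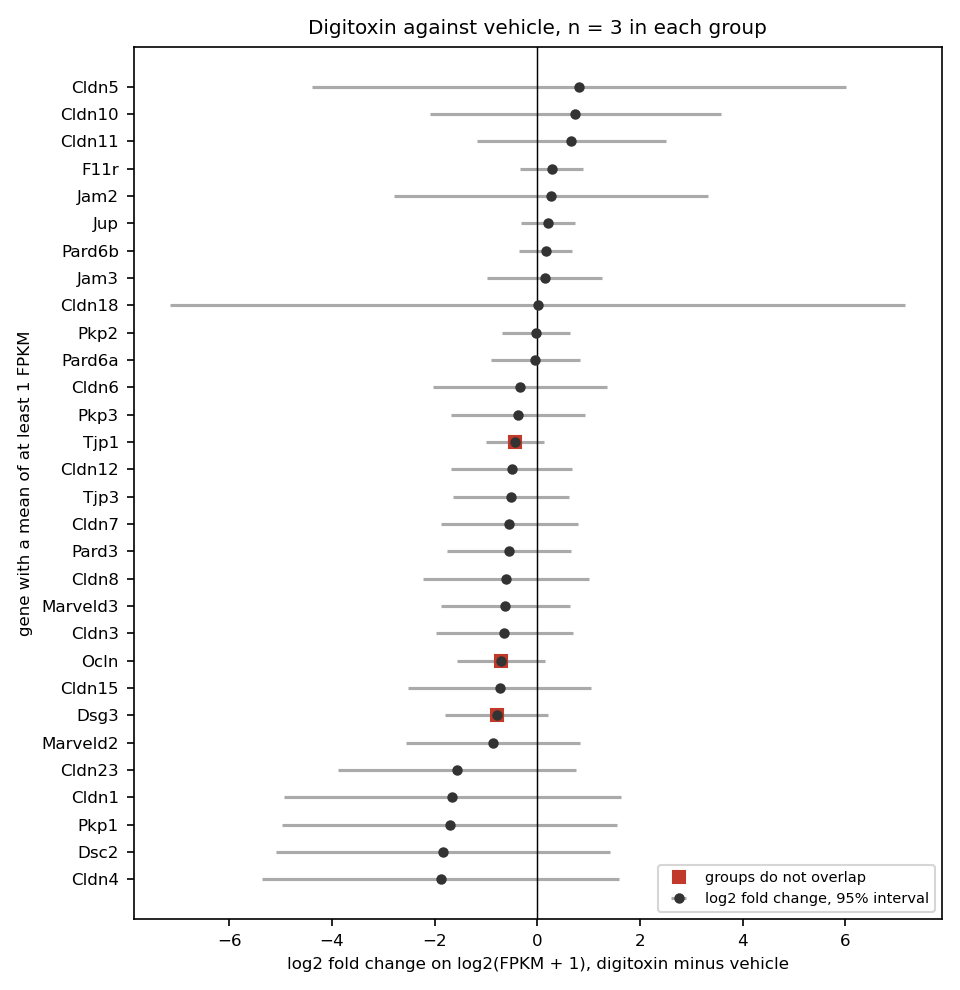
Log2 fold change, digitoxin minus vehicle, on the log2(FPKM + 1) scale (points) with 95% intervals from limma (lines) for 30 of the 31 tested genes, n = 3 in each group; red squares mark the 3 genes whose groups do not overlap. Every interval drawn crosses 0, and the widest, of Cldn18, runs from -7.15 to 7.17.

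The count at an unadjusted p depended on A12. Without it, 10 of the 31 genes passed, all lower with digitoxin (Cldn1, Cldn3, Cldn4, Cldn7, Cldn12, Cldn23, Tjp3, Dsc2, Pkp1 and Pkp3), against 19.8% of all rows. Groups then did not overlap, in either direction, for 22 of 31 genes, against 50.8% of all rows. Without A12 the log2 fold changes were -3.33 for Cldn4, -3.09 for Dsc2, -3.03 for Pkp1, -2.97 for Cldn1 and -2.38 for Cldn23. Without A6 they were -0.30, -0.32, -0.27, -0.25 and -0.45 in the same order, and as log2 ratios of group means, with all libraries, -0.40, -0.68, -0.55, -0.61 and -0.95. With A12 and B14 both left out, 8 genes passed, with Cldn1, Cldn4, Cldn7, Cldn23, Ocln, Dsc2 and Pkp1 lower and Cldn5 higher, against 11.2% of all rows, and groups did not overlap for 24, against 57.2% of all rows. In both fits the digitoxin libraries A1 and A6, at 52094 and 85708 FPKM, held higher alveolar marker sums than every vehicle library, so treatment and alveolar content cannot be told apart there. No gene passed the adjusted threshold in either case, with smallest adjusted p of 0.251 and 0.389. When the replicate number entered as a block, Cldn1, Pkp1 and Dsc2 passed at an unadjusted p of 0.0352, 0.0414 and 0.0456, against 4.15% of all rows, and the adjusted p was 0.638.

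Other junction genes gave no call either. Of 64 tested genes in the lists of further junction and regulator genes, 0 passed the adjusted threshold and 1 had an unadjusted p under 0.05, with 45 fold changes below 0 and a median of -0.24, against 64.9% and -0.16 for all rows. With median-of-ratios scaling, 37 of 63 were below 0, against 48.5% of all rows, and the median was -0.073. At an unadjusted p under 0.05, 19 of 63 passed without A12, against 19.8% of all rows, and 13 of 64 without A12 and B14, against 11.2%. In the adherens junction list 11 of 12 fold changes were below 0, in the list of other tight junction and polarity genes 15 of 26, in the list of other desmosome and keratin genes 5 of 7, and among the regulators 14 of 19. E-cadherin (Cdh1), the core of the adherens junction, was at 113, 92.7 and 90.9 FPKM with digitoxin and at 117, 135 and 96.7 FPKM with vehicle (log2 fold change -0.22, SE 0.22). Epcam, an epithelial adhesion protein that binds Cldn7, was at 208, 213 and 525 FPKM with digitoxin and at 460, 300.4 and 436 FPKM with vehicle (-0.46, SE 0.42). Neither followed the steep range of Cldn4 or Dsc2.

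The gene with an unadjusted p under 0.05 was Zeb2, a repressor of epithelial junction genes. It was at 2.69, 0.344 and 2.53 FPKM in A1, A6 and A12, and at 3.66, 6.65 and 6.01 FPKM in B5, B9 and B14. Every digitoxin library lay below every vehicle library, as in 2 of the 64 genes, against 3.26% of all rows. The log2 fold change was -1.28 (SE 0.50, unadjusted p = 0.043, adjusted p = 0.926, limma), against the 0.335% of all rows given above. The unadjusted p was 0.068 with a pseudocount of 0.1, 0.078 without A6 (log2 fold change -0.80), 0.053 without B5, 0.125 without B9, 0.107 without B14 and 0.057 without A12 and B14. Zeb2 is also expressed in leukocytes. Of 6 leukocyte markers 4 had a fold change below 0, against 64.9% of all rows, and their sum lay between 225 and 869 FPKM with digitoxin and between 432 and 657 FPKM with vehicle. Among them Cd53 had a log2 fold change of -0.81 (unadjusted p = 0.049, adjusted p = 0.926, limma), with groups that did not overlap (3.26% of all rows), while Cd68 was at 0.19 and Laptm5 at 0.06. Which cells the Zeb2 transcripts came from was not tested.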

How the data were processed

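Polyadenylated RNA of 6 PAIII tumors was sequenced as single reads from TruSeq libraries, 1 per rat. The authors aligned reads with Bowtie 2 and TopHat 2 and deposited FPKM computed with Cufflinks, with no counts. The build listed in the submitters' processing notes is human, so that of the rat coordinates is not given in the sources used here. Low FPKM steps fixed no relative depth (at most 4.87% of low rows at 1 ratio to B9), so depth is unknown and no counting interval is given. FPKM sums ran from 651322 to 1025231.

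The table has 17557 rows, with 467 symbols on more than 1 row, of which the row with the highest mean was used. Symbols with a mean of at least 1 FPKM (10740) were fitted with limma 3.58.1 in R 4.3.3 (lmFit, eBayes with trend) on log2(FPKM + 1), which understates changes of low genes. Tests were two-sided with Benjamini-Hochberg adjustment over all rows. Tables and plots used Python 3.11.15, numpy 2.4.6, pandas 2.3.3 and matplotlib 3.10.9. The fit was run on simulated data with large planted changes and no differences between libraries, which does not show how small a change could be found here.

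Genes, lists and tests were chosen with earlier results of these data known. Values in every library are given for genes with a mean of at least 10 FPKM, the 3 highest of a family, those whose groups did not overlap, and non-member genes fixed with the lists. Alternatives were median-of-ratios scaling, a pseudocount of 0.1, all rows unfiltered, no trend in eBayes, a block for the replicate number, each library left out, A12 and B14 left out, repeated rows summed, the alveolar list as a covariate, and ratios of group means. Deviations of libraries with the same replicate number correlated at r = 0.430, 0.607 and 0.869, so the block was applied. Nothing in the labels ties a number to a shared batch, and of the 6 crossed pairs A6 with B5 (r = 0.612) and A1 with B9 (r = 0.648) were as close, while the 4 with A12 or B14 lay between -0.750 and -0.666. Results on some single genes are part of the counts but not reported here by name.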

Additional observations from a re-analysis of the deposited data

How the results depend on the processing

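The count of 0 junction genes past the adjusted threshold held under all 14 alternatives, as it did for the further junction genes, whose count at an unadjusted p under 0.05 ran from 0 to 19 with 1 library left out (19 without A12) and was 0 with a pseudocount of 0.1. Counts at an unadjusted p under 0.05 moved: 0 of 31 became 3 with the replicate block, 1 with the alveolar covariate, 8 without A12 and B14, and from 0 to 10 when 1 library was left out, the 10 without A12. The replicate block changed no call at the adjusted threshold. The same count over all rows, 36, became 446 with the block, 386 with the covariate, 130 with no filter, 1200 without A12 and B14, and 11 to 2128 with 1 library left out. Past the adjusted threshold there were 0 rows, and 2 without A12 and B14, with 0 to 2 when 1 library was left out (2 without B14). Groups did not overlap for 3 genes, but for 24 without A12 and B14 (57.2% of all rows), and for 3 to 22 with 1 library left out: 22 without A12 (50.8% of all rows), 6 without B9 (8.08%) and 5 without B14 (10.4%). The median fold change of the tested junction genes, 30 to 31 of them with the filter and 40 without, stayed below 0, between -0.76 without A12 and B14 and -0.20 without A6, and was -0.57 without A1.

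Of 209 fold changes of 14 genes, 8 reversed, all of Cldn5 and Cldn18, and none of them passed a test. With 1 library left out, Cldn5 ran from -0.67 (without A6) to 3.06 (without A12), with -0.58 without B14, and Cldn18 from -2.60 (without B14) to 2.60 (without A12), with -1.36 without A1 and -1.21 without A6. Cldn18 was -0.00925 without A12 and B14, -0.38 with the covariate and -0.10 as a ratio of group means. The cause was not tested. Where 1 library of a group of 3 was left out, the spread was pooled over both groups. Dsg3 was under the minimum level without A12 and B14 and has no value there. The FPKM carry no counts, so counting error at low levels is unknown.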

Other observations

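The genes below come from the adherens junction and regulator lists and were picked after their values were seen. Ctnnb1, which encodes beta-catenin, the partner of E-cadherin and a Wnt effector, was at 408, 38.8 and 1085 FPKM in A1, A6 and A12, and at 672, 819 and 977 FPKM in B5, B9 and B14. Cdh1 in the same libraries lay between 90.9 and 135 FPKM, so the beta-catenin mRNA differed widely between libraries with nearly equal E-cadherin mRNA. Cdx2, an intestinal transcription factor, was at 33.4, 0.391 and 108 FPKM with digitoxin and at 61.3, 51.2 and 83.3 FPKM with vehicle. Its lowest library was A6 and its highest were A12 and B14, as for Cldn4. Snai1, a repressor of epithelial junction genes, was at 14.02, 9.49 and 44.9 FPKM with digitoxin and at 8.55, 9.76 and 36.7 FPKM with vehicle. Like Cldn4, Cldn7 and Cdx2, it was thus highest in A12 and B14, a pattern met by 30.1% of all tested rows. The fibroblast list sum was also highest in A12 and B14, and which cells the Snai1 transcripts came from was not tested. Adjusted p was 0.926 or more for each of these genes in limma.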
